A study of Mus musculus with 6 samples.

Results

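The Hippo pathway and the target genes of its coactivators YAP and TAZ were followed through mouse embryonic fibroblasts labelled wild type or SphK2 null. The set held 39 genes taken from a named list, 22 pathway components and 17 targets, out of 46983 genes in the count files. All 39 were matched to an Ensembl identifier, with Ctgf and Cyr61 listed under their newer symbols Ccn2 and Ccn1, and all 39 passed the filter on low counts that left 15199 genes to test. Sphk2 encodes sphingosine kinase 2, an enzyme that makes the lipid signal sphingosine-1-phosphate. Each genotype had 3 RNA sequencing libraries of C57BL/6 cells from embryos of 14 days, cultured to passage 16 in medium with 10% fetal bovine serum and given no other treatment in the labels. The labels do not describe the null allele, and they do not say whether each library had an embryo or culture of its own. P-values therefore measure only how these libraries varied, and that variation may be technical.

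Hippo signalling is a kinase relay that restrains growth. The kinases MST1 and MST2, encoded by Stk4 and Stk3, act with the adaptor SAV1 on LATS1 and LATS2, which with MOB1 phosphorylate YAP and TAZ and keep them out of the nucleus. Unphosphorylated YAP and TAZ bind TEAD transcription factors and raise genes such as Ctgf and Cyr61, and in fibroblasts this output is known to follow cell stretching, contact and serum lipids, sphingosine-1-phosphate among them. The pathway is set largely by phosphorylation and location of proteins, which RNA counts do not measure.

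The libraries held 15598566 to 23681718 counts in genes. Levels are given as CPM (counts scaled for library size with TMM factors), and each fold change is that of null-labelled over wild-type-labelled libraries. Across genes, which are not independent replicates, Pearson's r of log2 CPM was 0.998 for libraries of the same label and 0.792 to 0.796 for libraries of different labels. The targeted gene Sphk2 went against the label: the wild-type-labelled libraries had 28.1, 27.4 and 26.3 CPM and the null-labelled ones 49.4, 51.6 and 49.1 CPM, a log2 fold change of 0.87 ± 0.051 (SE, edgeR adjusted p = 4.48e-64). Counts are summed over the whole gene, so they do not show which exons an allele removed, and the groups are named here by their labels, from which every direction below is drawn. The defining fibroblast markers were lower in the null-labelled libraries: their 14 genes summed to 14998 to 15448 CPM under the wild type label and to 3452 to 3489 CPM under the null label, all 14 were lower, and Thy1 had no count in the latter. Col3a1 stood at 3059 ± 76.6 against 8.86 ± 0.423 CPM, Col1a2 at 2605 ± 43.1 against 7.39 ± 0.488 CPM and Vim, vimentin, at 5622 ± 115 against 3211 ± 17.9 CPM (SD, n = 3, wild-type-labelled first). At a mean of at least 1 CPM there were 14 of the 14 under the wild type label and 9 of the 14 under the null label.

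Markers of other cell types were summed in the same way, with the wild-type-labelled range first. The 14 epithelial markers summed to 111 to 115 against 386 to 413 CPM, nearly all of it Krt8, with Epcam and Cdh1 under 1 CPM throughout. The 10 trophoblast markers summed to 1.51 to 2.25 against 20.03 to 20.8 CPM, nearly all Hand1 in the latter, with Cdx2 and Prl3d1 at 0 throughout. The 10 endoderm markers summed to 216 to 224 against 64.4 to 67.4 CPM, with Sox17 and Ttr at 0 throughout, and the 8 smooth muscle markers to 299 to 319 against 90.6 to 97.5 CPM with none at 0. Both lists went in either direction, with fitted log2 fold changes of -5.12 to 5.11 for endoderm and -7.74 to 0.69 for smooth muscle. So did the other lists with a sum led by 1 gene. Of 5 epithelial markers tested, 2 were higher and 2 lower (-2.26 to 4.44), and of 2 trophoblast markers tested, 1 each (-3.06 to 7.11). At a mean of at least 1 CPM there were 4 endoderm markers under the wild type label and 5 under the null label, and 6 and 4 smooth muscle markers. The 8 neural markers summed to 427 to 435 against 438 to 463 CPM, with Sox10 at 0 in the null-labelled libraries. Their similar sums hide changes, since of 5 tested 2 were higher and 2 lower, with log2 fold changes of -10.2 to 0.87. The 8 pluripotency markers summed to 68.8 to 70.6 against 61.3 to 68.9 CPM, nearly all Klf4, with Zfp42, Dppa5a and Utf1 at 0 throughout. The 8 endothelial markers (1.89 to 2.67 against 2.87 to 3.46 CPM, Emcn at 0 throughout) and the 8 leukocyte markers (3.74 to 3.91 against 5.78 to 6.61 CPM, Cd3e at 0 throughout) were near 0. None of the 39 genes is in a marker list. The part of these differences in the results below was not tested, and in bulk RNA a change in the share of a cell type and a change in RNA per cell cannot be told apart.

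Most of the pathway genes differed between the labels, as most genes did. Of the 22 components, the null-labelled libraries had 14 lower and 7 higher by edgeR's quasi-likelihood test at an adjusted p under 0.05, and of the 17 targets 12 were lower and 4 higher. Over all 15199 genes tested, 79.2% passed this threshold in either direction, 41.1% lower and 38.1% higher. Together 37 of the 39 genes (94.9%) passed, and in the same 37 the groups did not overlap, where 79.9% of all genes tested showed no overlap. The genes of the set were also more abundant than most, with a median average log2 CPM of 6.19 against 4.59 over all genes tested. The shares that passed are thus read beside a high background and not as particular to the pathway.

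Size separated the genes more than passing the threshold did. By over 2-fold, 7 components were lower and 2 higher, and 7 targets were lower and 2 higher. This makes 31.8% of the components and 41.2% of the targets over 2-fold lower, beside 15.8% of all genes tested, and 9.09% and 11.8% over 2-fold higher, beside 10.4%. The median log2 fold change was -0.33 for the components and -0.93 for the targets, also when Vgll3, which had no count in the null-labelled libraries, was set at its bound, beside -0.02 over all genes tested. The plot of CPM by library shows the spread of the 3 libraries of a group to be small beside most of these differences.

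**Figure D1:**
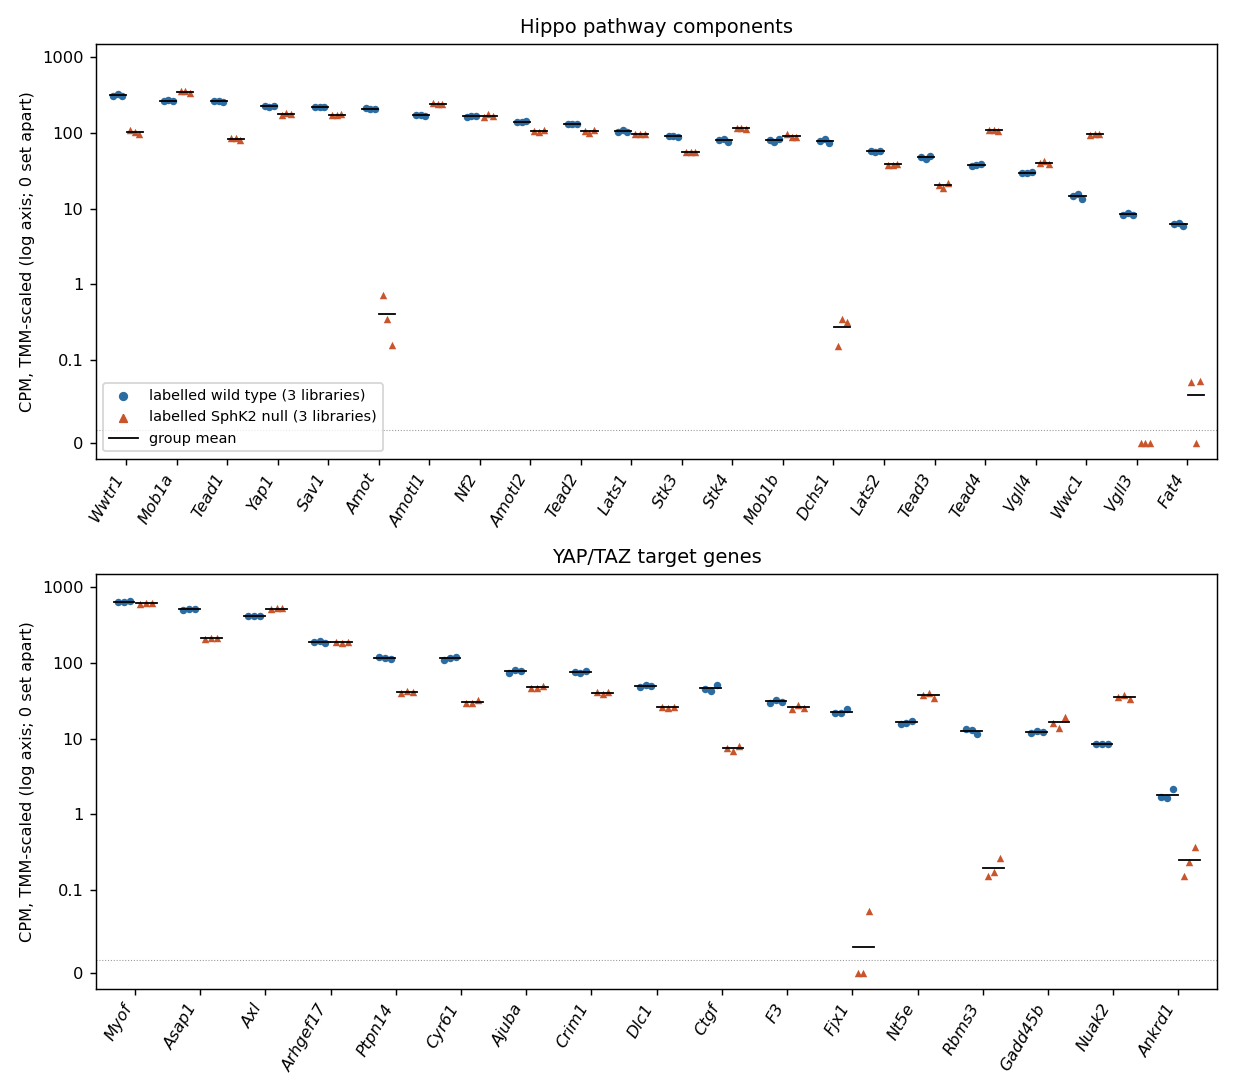
TMM-scaled CPM of each gene (log axis, with 0 set apart at the bottom) in the 3 wild-type-labelled libraries (circles) and the 3 null-labelled libraries (triangles), with group means as lines, for components above and targets below. Amot, Dchs1, Fat4, Vgll3, Fjx1, Rbms3 and Ankrd1 fall below 1 CPM in the null-labelled libraries, while Wwc1 rises from 14.6 to 95.7 CPM.

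The coactivators were both lower, TAZ by far more than YAP. Yap1 (ENSMUSG00000053110, chr9:7931999-8004596, minus strand, mm10) stood at 224, 222 and 227 CPM under the wild type label against 175, 183 and 181 CPM under the null label. Wwtr1, which encodes TAZ (ENSMUSG00000027803, chr3:57455649-57575910, minus strand), stood at 311, 323 and 306 CPM against 109, 103 and 96.6 CPM. Neither gene's groups overlapped, and the log2 fold changes were -0.32 ± 0.027 (SE) for Yap1 and -1.60 ± 0.029 (SE) for Wwtr1, where the larger edgeR adjusted p was 5.34e-31.

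Because these genes differ in length, the balance of TAZ and YAP was set per kilobase of exon. Yap1 made up 27.1%, 26.2% and 27.7% of the summed reads per kilobase of Yap1 and Wwtr1 under the wild type label. Under the null label its share was 45.3%, 47.7% and 49.2%. Per kilobase the pair thus went from mostly Wwtr1 to nearly equal parts (without division by length, Yap1 went from 41.7% to 63.5%), while their summed level was 2.19-fold lower, from 89.9 ± 1.63 to 41.003 ± 1.10 RPKM, which is CPM per kilobase of exon (SD, n = 3). The exact two-sided permutation test of the share gave p = 0.1, adjusted p = 0.1 over the 5 shares tested, which is the smallest p that 3 against 3 libraries allow.

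The TEAD factors, the DNA-binding partners of YAP and TAZ, changed places in abundance. Tead1, known for its role in heart muscle (chr7:112679318-112906807, plus strand), stood at 267, 265 and 257 CPM against 86.3, 85.1 and 80.9 CPM. Tead4, known for its role in the trophectoderm and in muscle (chr6:128224288-128300823, minus strand), went the other way, at 36.8, 38.1 and 38.7 CPM against 109, 111 and 106 CPM. The lowest null-labelled value of Tead4 was thus above its highest wild-type-labelled value, and the reverse held for Tead1, with log2 fold changes of 1.52 ± 0.042 and -1.65 ± 0.030 (SE). Tead3 fell from 47.8 ± 1.86 to 20.5 ± 1.66 CPM and Tead2 from 132 ± 1.75 to 105 ± 3.95 CPM (SD, n = 3), log2 fold changes of -1.22 ± 0.055 and -0.32 ± 0.033 (SE). The largest edgeR adjusted p of the 4 genes was 6.42e-23.

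Per kilobase of exon, the summed TEAD level was 73.1 ± 0.264 RPKM against 64.9 ± 0.684 RPKM (SD, n = 3), 1.13-fold lower under the null label. In CPM, without division by length, the sum was 482.4, 482.2 and 477.8 under the wild type label against 323.3, 315.9 and 316.8 under the null label, a larger gap. Within the sum per kilobase, Tead4 rose from 14.4% ± 0.312 to 46.5% ± 1.37 and Tead1 dropped from 32.01% ± 0.776 to 11.5% ± 0.360 (SD, n = 3). Tead3 went from 14.9% ± 0.569 to 7.19% ± 0.553 and Tead2 from 38.7% ± 0.396 to 34.8% ± 1.13. The most abundant TEAD per length was Tead2 in the wild-type-labelled libraries and Tead4 in the null-labelled ones. This order depended on the division by length. In CPM, Tead1 led under the wild type label, with a mean of 263 against 132 for Tead2. Under the null label Tead4 (109, 111 and 106 CPM) and Tead2 (107, 101 and 108 CPM) overlapped. The groups did not overlap in any of the 4 shares, and each exact two-sided permutation test gave p = 0.1, adjusted p = 0.1. The direction for Tead2 depended on the division by length, since its share of plain counts was 27.5% under the wild type label and 33.1% under the null label. Tead2 (chr7:45215753-45233635, plus strand) lies 476 kb from Sphk2 on chromosome 7.

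**Figure D2:**
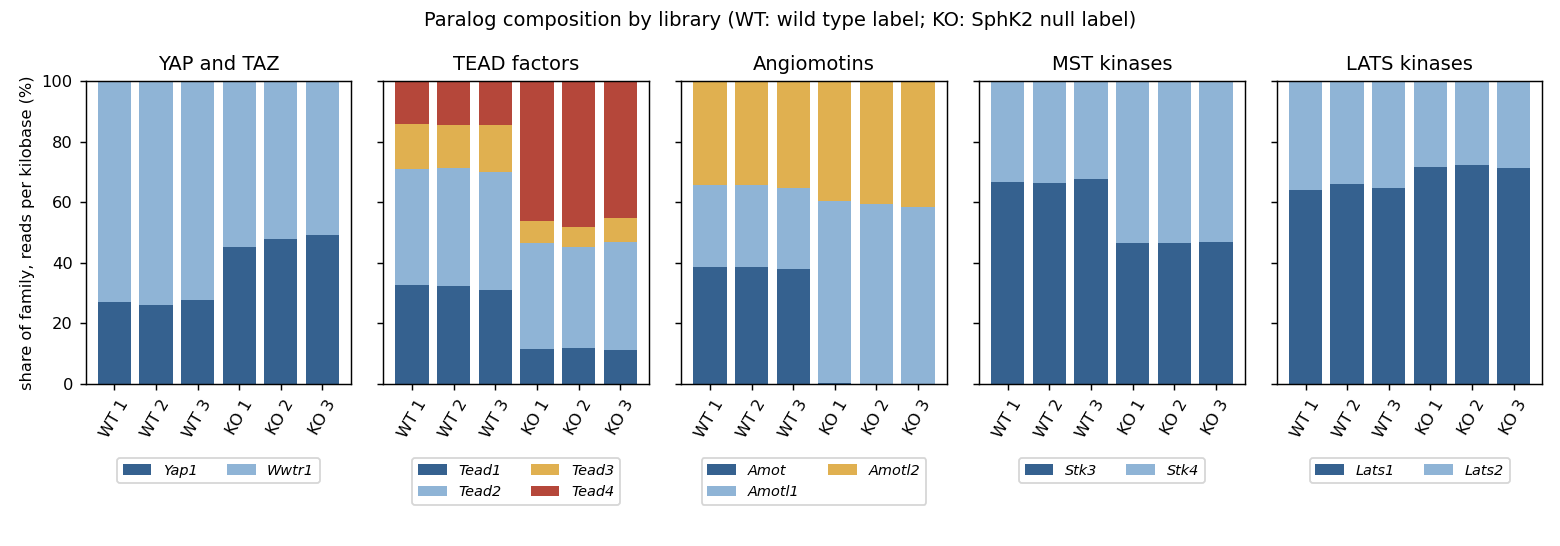
Share of each paralog in its family's summed reads per kilobase of exon, in percent, for each of the 3 wild-type-labelled (WT) and 3 null-labelled (KO) libraries. Tead4 takes 14.4% of the TEAD sum under the wild type label and 46.5% under the null label, and Amot goes from 38.4% of the angiomotin sum to 0.116%.

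The core kinases and their adaptors moved by less than 2-fold, in both directions. Of the 7 genes, 4 were lower and 3 higher, with log2 fold changes from -0.70 to 0.52 and a median of -0.12, and the largest edgeR adjusted p was 0.000619. Stk3, which encodes MST2, stood at 91.1, 92.4 and 88.6 CPM against 56.0, 55.8 and 55.4 CPM. Stk4, which encodes MST1, stood at 81.9, 84.4 and 76.7 CPM against 116, 117 and 114 CPM. The groups of both genes stood apart in opposite directions, and per kilobase the share of Stk3 in the sum of the 2 kinases went from 67.0% ± 0.606 to 46.6% ± 0.197 (SD, n = 3).

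Downstream, the YAP kinases LATS1 and LATS2 were both lower. Lats2, itself known to be raised by YAP as a feedback, stood at 58.4, 56.8 and 57.2 CPM against 38.4, 37.4 and 39.4 CPM, a log2 fold change of -0.58 ± 0.046 (SE). Lats1 stood at 103, 111 and 105 CPM against 97.4, 97.4 and 97.2 CPM, so that its log2 fold change of -0.12 ± 0.035 (SE) was the smallest of the 7 genes. Sav1, the scaffold that binds MST kinases, fell from 220.3 ± 3.19 to 174 ± 2.05 CPM (SD, n = 3). The MOB1 adaptors that bind LATS were higher, Mob1a at 268 ± 5.25 against 349.5 ± 14.1 CPM and Mob1b at 80.1 ± 3.40 against 91.1 ± 5.39 CPM (SD, n = 3). Per kilobase Mob1a held 91.3% ± 0.484 of the MOB1 sum under the wild type label and 92.3% ± 0.316 under the null label (SD, n = 3).

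Upstream of the kinases, the atypical cadherins Fat4 and Dchs1 were nearly lost. FAT4 and DCHS1 are giant cell-surface cadherins that bind each other across neighbouring cells. Dchs1 (ENSMUSG00000036862, chr7:105752989-105787654, minus strand) stood at 77.7, 82.3 and 74.5 CPM against 0.154, 0.350 and 0.320 CPM, a log2 fold change of -8.13 ± 0.12 (SE). Leaving out 1 null-labelled library at a time moved it within -8.34 to -7.84, by more than this SE each time. Fat4 (ENSMUSG00000046743, chr3:38886940-39011985, plus strand) had 146, 99 and 113 counts against 1, 0 and 1. The wild-type-labelled level of Fat4 was low, at 6.23 ± 0.293 CPM (SD, n = 3), and over the 3 libraries of each label the ratio was 172 with an exact binomial 95% counting interval of 47.3 to 1427.

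A target belongs with these 2 cadherins. Fjx1 is the mammalian relative of fly four-jointed, a Golgi kinase that phosphorylates cadherin domains of Fat and Dachsous. Fjx1 (ENSMUSG00000075012, chr2:102449366-102452499, minus strand) stood at 22.1, 21.6 and 24.4 CPM against 0, 0 and 0.0533 CPM. Over the 3 libraries of each label this was 1309 counts against 1 (ratio 1259, exact binomial 95% counting interval 226 to 49775). Each of the 3 genes of this axis was thus at or near 0 in every null-labelled library, where a count of 3 corresponds to 0.154 to 0.175 CPM. Fat1, another Fat cadherin of the list of other pathway genes, went the other way, from 119 ± 6.63 to 175 ± 5.74 CPM (SD, n = 3, log2 fold change 0.55 ± 0.030 SE), and was singled out after its values were seen.

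The remaining upstream regulators were Wwc1 and Nf2. Wwc1, which encodes KIBRA, a scaffold that promotes LATS activation (ENSMUSG00000018849, chr11:35838400-35980527, minus strand), stood at 14.6, 15.6 and 13.5 CPM against 94.9, 95.6 and 96.6 CPM. This was the largest rise of the 39 genes, 6.60-fold, with a log2 fold change of 2.72 ± 0.052 (SE). Nf2, which encodes merlin, a partner of KIBRA at the membrane, stood at 165, 169.5 and 166 CPM against 163, 177 and 168 CPM with overlapping groups. Its log2 fold change of 0.02 ± 0.029 (SE) had an edgeR adjusted p = 0.481 and a 95% interval of -0.03 to 0.08.

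Among the angiomotins, junction proteins that bind YAP and TAZ and retain them in the cytoplasm, Amot was nearly lost and its paralogs stayed. Amot (ENSMUSG00000041688, chrX:145446425-145505181, minus strand) stood at 212, 210.3 and 205 CPM against 0.717, 0.350 and 0.160 CPM, from 14, 6 and 3 counts in the null-labelled libraries. Its log2 fold change was -8.95 ± 0.083 (SE). It was -9.66 without null-labelled replicate 1, which held most of these counts, and -8.56 without null-labelled replicate 3. Both shifts exceed the SE, which is too small where so few counts remain. Amotl1 stood at 172, 172 and 169.9 CPM against 249, 239 and 241 CPM, and Amotl2 at 141, 140.3 and 143 CPM against 105, 104 and 110.0 CPM. Amotl1 was thus higher and Amotl2, which is also a known YAP target, lower, with log2 fold changes of 0.51 ± 0.027 and -0.41 ± 0.032 (SE) and a larger edgeR adjusted p of 2.45e-36. The summed angiomotin level per kilobase went from 64.8 ± 0.339 to 41.8 ± 0.679 RPKM (SD, n = 3), and Amotl1 came to hold 59.4% ± 0.912 of it.

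The Vestigial-like cofactors bind TEADs in place of YAP and TAZ, and the pair here went apart. Vgll3 (ENSMUSG00000091243, chr16:65815633-65863057, plus strand) had 192, 133 and 157 counts in the libraries of the wild type label and none in the others, at least 155-fold lower when the latter were set at 3 counts over the group. Vgll4, a corepressor that competes with YAP for TEADs, rose from 30.1 ± 0.682 to 40.6 ± 1.58 CPM (SD, n = 3), a log2 fold change of 0.43 ± 0.052 (SE, edgeR adjusted p = 4.36e-16).

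Of the 8 secreted or membrane targets, 6 passed as lower and 2 as higher. Their median log2 fold change was -0.59. Ctgf, a matricellular growth factor used as the standard YAP readout (ENSMUSG00000019997, chr10:24595442-24598683, plus strand), stood at 45.1, 43.2 and 51.2 CPM against 7.48, 6.89 and 7.94 CPM. Cyr61, its close relative (ENSMUSG00000028195, chr3:145646976-145649981, minus strand), stood at 110.3, 117 and 119 CPM against 29.9, 29.7 and 32.04 CPM. Both were far apart between the labels, 6.25-fold and 3.77-fold lower, with log2 fold changes of -2.64 ± 0.069 and -1.91 ± 0.043 (SE). Of the exonic bases of Ctgf, 23.2% also belong to the gene Gm15270, and reads there were left uncounted, so the level of Ctgf is too low under both labels.

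Per kilobase, the sum of Ctgf and Cyr61 went from 73.3 ± 3.18 to 17.7 ± 0.815 RPKM (SD, n = 3). Crim1, a membrane protein that binds bone morphogenetic proteins, fell from 76.6 ± 1.53 to 40.3 ± 1.56 CPM (SD, n = 3). F3, the membrane-bound tissue factor of blood clotting, differed by less, at 29.9, 32.3 and 31.0 CPM against 25.1, 27.6 and 25.6 CPM, a log2 fold change of -0.25 ± 0.058 (SE, edgeR adjusted p = 2.69e-05).

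Ankrd1, a nuclear and sarcomeric ankyrin protein and a further standard readout of YAP, was low under both labels. It had 39, 25 and 41 counts against 3, 4 and 7 counts, which is 1.82 ± 0.282 against 0.253 ± 0.111 CPM (SD, n = 3). Its log2 fold change of -2.82 ± 0.34 (SE) was past the threshold (edgeR adjusted p = 4.57e-16), but rests on few counts. The 3 standard readouts Ctgf, Cyr61 and Ankrd1 were thus all lower, by 3.77-fold to 7.06-fold.

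A pair of membrane targets went the other way. Nt5e, the ectonucleotidase CD73 that makes adenosine (chr9:88327197-88372092, plus strand), stood at 15.7, 16.3 and 17.2 CPM against 38.0, 39.8 and 34.2 CPM. Axl, a receptor tyrosine kinase and often used YAP readout (chr7:25757273-25788705, minus strand), stood at 417, 415 and 414 CPM against 514, 528 and 526 CPM. Both were higher in every null-labelled library, with log2 fold changes of 1.19 ± 0.061 and 0.33 ± 0.023 (SE) and a larger edgeR adjusted p of 1.31e-45. Myof, myoferlin of membrane repair, stood at 638, 636 and 649 CPM against 597, 625 and 614 CPM, 1.05-fold lower. Its log2 fold change of -0.07 ± 0.022 (SE) passed the threshold with an edgeR adjusted p = 0.00422, while without null-labelled replicate 1 it was -0.05 with an adjusted p = 0.056, over the threshold.

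Regulators of small GTPases, which set actin tension and adhesion, came next. Asap1, an Arf GTPase-activating protein of focal adhesions, was among the most abundant targets, at 505, 516 and 515 CPM against 210.4, 212 and 215 CPM. Dlc1, another GTPase-activating protein, fell from 49.9 ± 1.57 to 25.9 ± 0.552 CPM (SD, n = 3). These 2 negative regulators of GTPases were lower by log2 fold changes of -1.27 ± 0.025 and -0.94 ± 0.052 (SE), while Arhgef17, a guanine nucleotide exchange factor that activates a GTPase, had overlapping groups at 192, 193 and 185 CPM against 187, 185 and 191 CPM. Arhgef17 did not pass, with a log2 fold change of -0.02 ± 0.028 (SE), an edgeR adjusted p = 0.534 and a 95% interval of -0.07 to 0.04.

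Of the other 5 intracellular targets beside Ankrd1, 3 were lower and 2 higher. Rbms3, an RNA-binding protein, was nearly lost, at 13.2, 13.0 and 11.6 CPM against 0.154, 0.175 and 0.267 CPM. Ptpn14, a phosphatase that also binds and restrains YAP, fell from 117 ± 2.81 to 41.1 ± 1.39 CPM (SD, n = 3), and Ajuba, a LIM protein that inhibits LATS kinases, from 77.9 ± 3.52 to 48.1 ± 1.83 CPM (SD, n = 3). Both of these act in the pathway as well as being its targets, and their roles are opposite. Nuak2, a kinase of the AMPK family that acts on myosin phosphatase, rose 4.2-fold, from 8.39, 8.46 and 8.43 CPM to 35.5, 37.3 and 33.5 CPM, the largest rise among the 17 targets. Gadd45b, a stress-induced regulator of MAP kinase signalling, stood at 11.9, 12.6 and 12.1 CPM against 16.2, 14.0 and 19.2 CPM, with a log2 fold change of 0.44 ± 0.079 (SE, edgeR adjusted p = 4.05e-08).

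**Figure D3:**
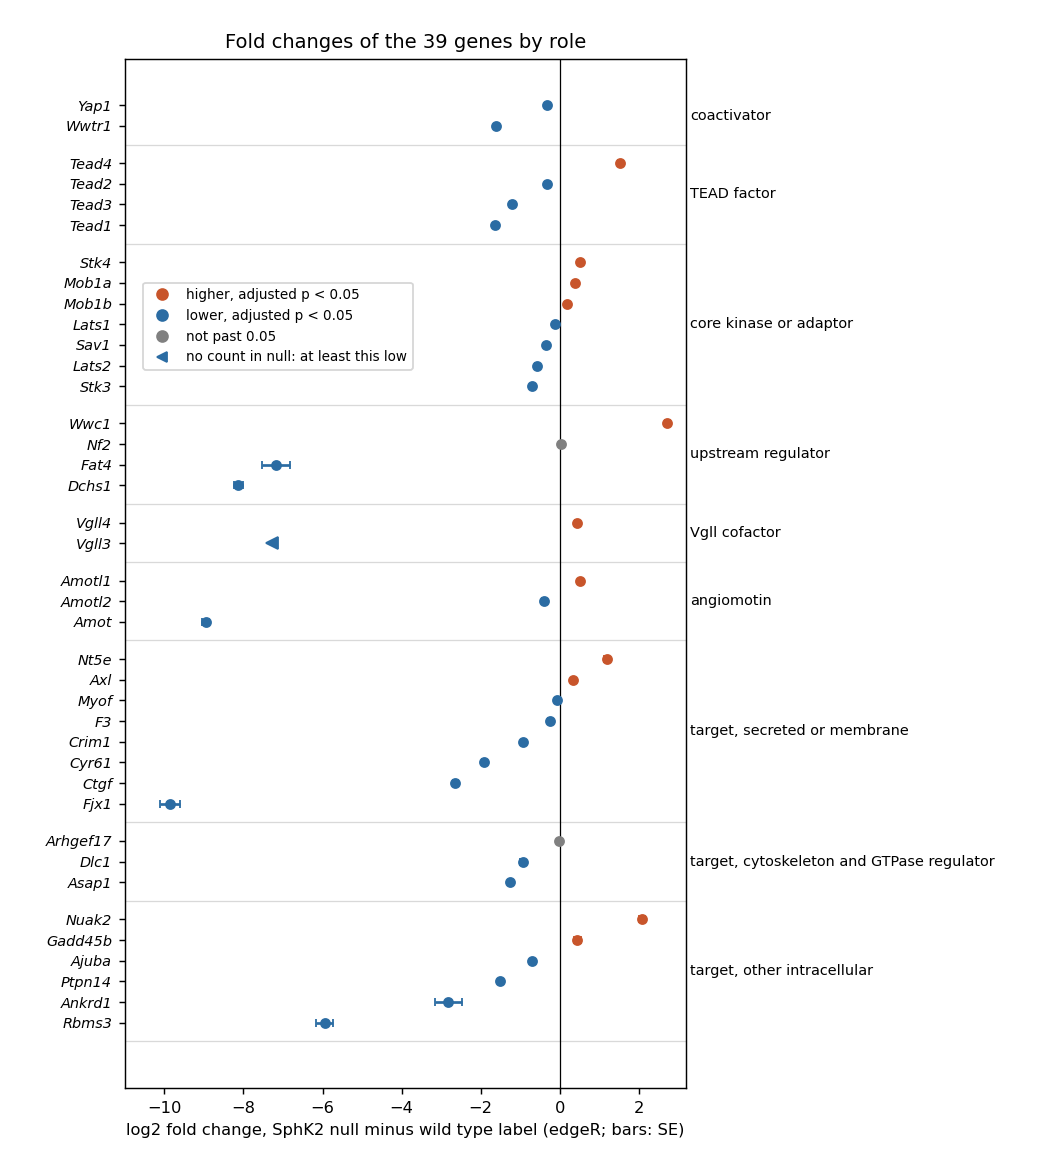
Log2 fold change of each of the 39 genes, null-labelled minus wild-type-labelled, by role, with bars for the SE and the colour giving the edgeR call at an adjusted p under 0.05. The bars are too short for genes nearly lost under the null label, such as Fjx1 (null-labelled sum of 1 count) and Fat4 (2 counts). Vgll3 is drawn at its bound of -7.27, since it had no count in the null-labelled libraries, and the core kinases and adaptors stay within -0.70 to 0.52.

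TEAD factors are known to bind the letters GGAATG. The promoter windows of 4 of the 6 targets found to hold them are given, 3 of genes that were lower and 1 of a gene that was higher. Each runs from 250 bases before to 50 bases after the RefSeq start (GRCm38.p6), 5′ to 3′ along the gene, with matches to the TEAD core GGAATG or its reverse complement CATTCC in capitals. Cyr61 lies at chr3:145649936-145650235 (minus strand), Ankrd1 at chr19:36119795-36120094 (minus strand), Ajuba at chr14:54577612-54577911 (minus strand) and Axl at chr7:25788684-25788983 (minus strand).
Cyr61: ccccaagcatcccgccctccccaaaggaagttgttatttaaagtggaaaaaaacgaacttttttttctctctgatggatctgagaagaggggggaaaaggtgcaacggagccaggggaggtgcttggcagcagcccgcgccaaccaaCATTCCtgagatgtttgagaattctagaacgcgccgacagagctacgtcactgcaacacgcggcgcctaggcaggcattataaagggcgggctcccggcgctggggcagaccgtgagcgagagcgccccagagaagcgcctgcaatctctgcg
Ankrd1: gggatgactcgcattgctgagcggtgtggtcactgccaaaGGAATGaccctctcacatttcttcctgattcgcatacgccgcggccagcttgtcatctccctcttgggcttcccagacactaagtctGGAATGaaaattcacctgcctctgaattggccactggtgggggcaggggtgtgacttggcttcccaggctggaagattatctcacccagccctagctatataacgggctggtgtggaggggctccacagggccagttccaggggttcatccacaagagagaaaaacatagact
Ajuba: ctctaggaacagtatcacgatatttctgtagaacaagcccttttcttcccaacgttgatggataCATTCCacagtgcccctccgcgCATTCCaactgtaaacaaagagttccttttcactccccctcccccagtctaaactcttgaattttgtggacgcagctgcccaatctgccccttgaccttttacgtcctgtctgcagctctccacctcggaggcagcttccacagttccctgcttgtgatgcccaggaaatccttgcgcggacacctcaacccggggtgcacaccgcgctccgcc
Axl: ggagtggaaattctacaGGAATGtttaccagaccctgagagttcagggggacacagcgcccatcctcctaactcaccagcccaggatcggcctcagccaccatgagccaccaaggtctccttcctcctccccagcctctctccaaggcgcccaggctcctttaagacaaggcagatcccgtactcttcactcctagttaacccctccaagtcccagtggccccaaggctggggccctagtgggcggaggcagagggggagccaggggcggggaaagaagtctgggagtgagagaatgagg

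Cyr61 held 1 match, which began 103 bases before the start, and Axl held 1 at 233 bases before it. Ankrd1 held 2 matches, at 210 and 123 bases before the start, and Ajuba held 2 at 186 and 164 bases before it. The windows of Crim1 and Ptpn14, both lower, held 1 match each and are not printed, so Axl was the only higher target with a match. The letters thus stood in promoters of genes that went in either direction. RefSeq windows were found for 29 of the 39 genes, and 15 of these held GGAATG on either strand, 9 of 18 components and 6 of 11 targets. By window, 17 of 35 (48.6%) held it, beside 14.7% of the 32851 windows of all genes. Windows of a gene can overlap, and the 2 of Wwtr1 hold the same match. The windows of all genes were not limited to the genes tested. Of the 15 genes with a match, 12 passed the threshold as lower and 3 as higher, and of the 14 without, 7 as lower and 6 as higher. Over all genes tested, 41.1% passed as lower and 38.1% as higher, and these were not split by the letters. Members without a window, Ctgf among them, are in neither count. Whether the letters go with a direction was not tested. The AP-1 letters TGANTCA, palindromic and not overlapping GGAATG in these windows, were found in 1 of 35 windows (2.86%), that of F3, beside 7.81% of all windows. A match is a description of the sequence, not a bound site, and no match says only that the letters are not in this window.

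Per kilobase, the order of levels also changed. Under the wild type label the highest of the 39 were Myof (90.1 ± 1.04 RPKM), Sav1 (87.3 ± 1.26 RPKM) and Axl (82.5 ± 0.311 RPKM), and the lowest was Fat4 (0.363 ± 0.017 RPKM; SD, n = 3). Under the null label Axl (103.9 ± 1.58 RPKM), Myof (86.1 ± 1.94 RPKM) and Mob1a (72.9 ± 2.93 RPKM) led, and Tead4 moved from place 24 to place 5 and Amot from place 10 to place 34. Wwc1 moved from place 33 to place 13 and Cyr61 from place 6 to place 17. Some neighbours could not be ordered within their spread, such as Tead2 (28.3 ± 0.376 RPKM) and Stk3 (28.03 ± 0.598 RPKM) or Nf2 (24.4 ± 0.368 RPKM) and Yap1 (24.2 ± 0.243 RPKM) under the wild type label.

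The wider pathway was drawn from 66 other genes: Fat and polarity proteins, further kinases of the MAP4K and TAO families, the STRIPAK phosphatase complex that opposes MST kinases, and 14-3-3 proteins that hold phosphorylated YAP. Of the 57 tested, 28 were higher and 22 lower (49.1% and 38.6%, beside 38.1% and 41.1% of all genes tested), with a median log2 fold change of 0.06. The 4 genes named had the largest changes among those whose average log2 CPM reached 1, and low genes such as Tnik (60 counts against 1) and Rassf4 (5 against 85), singled out after their values were seen, changed by more than some of them. Wtip, a LIM protein related to Ajuba, had 659 counts against 2 (ratio 317, exact binomial 95% counting interval 87.4 to 2623). Patj, a scaffold of the Crumbs polarity complex, fell from 6.15 ± 1.13 to 0.201 ± 0.087 CPM, while Llgl2, another polarity protein, rose from 0.735 ± 0.292 to 8.45 ± 0.778 CPM (SD, n = 3). Stk24, an MST-related kinase found in STRIPAK, fell from 429 ± 15.1 to 162 ± 4.18 CPM (SD, n = 3). The medians of the wider pathway and of all genes tested were thus within 0.1 of each other on the log2 scale.

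Other genes often listed as YAP/TAZ targets were lower in larger numbers and by more. Of 33 tested, 24 were lower and 8 higher (72.7% and 24.2%, beside 41.1% and 38.1% of all genes tested). The median log2 fold change was -2.09, and 18 were over 2-fold lower (54.5%, beside 15.8% of all genes tested). This list overlaps the endoderm and smooth muscle marker lists, so it is not separate from the marker sums given above. Marcks, an actin-binding substrate of protein kinase C, fell from 85.6 ± 2.10 to 0.180 ± 0.023 CPM and Thbs1, the matrix protein thrombospondin, from 518 ± 11.1 to 1.66 ± 0.279 CPM (SD, n = 3). Foxf2, a forkhead factor of mesenchyme, had 729 counts against 1 (ratio 701, exact binomial 95% counting interval 125 to 27737), and Il33, an alarmin, 560 against 1 (ratio 539, interval 96.3 to 21316). Several of these genes are matrix or mesenchymal genes, and the fibroblast markers given above were lower beside them; their part in these counts was not tested.

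**Figure D4:**
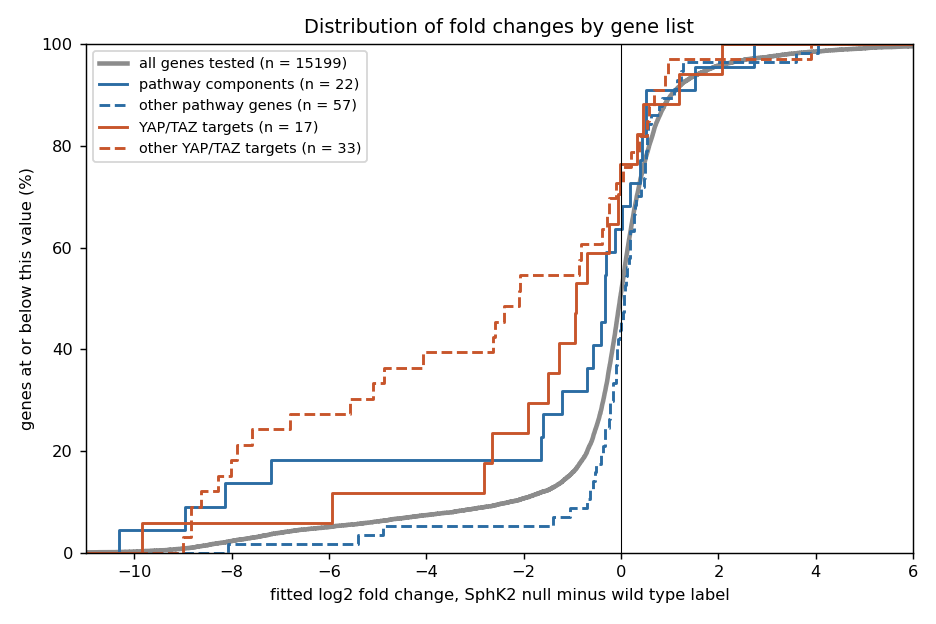
Cumulative share of genes (percent) by fitted log2 fold change, null-labelled minus wild-type-labelled, for all 15199 genes tested (grey), components (blue, solid) and other pathway genes (blue, dashed), and targets (orange, solid) and other targets (orange, dashed). The medians are -0.33 for components, 0.06 for other pathway genes, -0.93 for targets, -2.09 for other targets and -0.02 for all genes tested.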

How the data were processed

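The deposited counts of 6 RNA sequencing libraries were grouped by their titles. The authors made these counts, unnormalized reads per Ensembl gene over its exons, with featureCounts 1.6.2 and an Ensembl release 83 annotation of GRCm38 (mm10 chromosome names), per the file headers. The headers show no option for strand, multimapping or overlap, so reads in exons that genes share, on any strand, are left out. The submitters' processing notes list featureCounts 1.2.6, which differs from the headers, beside Subread 1.6.2, FastQC 0.11.2 and Trimmomatic 0.33. The labels give single reads of 51 bp.

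Identifiers gave symbols for 46488 of 46983 genes (98.9%). Genes kept by filterByExpr (15199) were scaled with TMM factors and fitted in edgeR 4.0.16 under R 4.3.3 (robust quasi-likelihood F-test, 3 against 3 libraries, no covariate), with Benjamini-Hochberg adjustment over all of them and a threshold of 0.05. The SE is the log2 fold change over the square root of F, and 95% intervals span 1.96 SE. For large fold changes that rest on few null-labelled counts this SE is too small to give their precision. Folds against no counts used 3 counts over the group. Counting intervals cover counting error only, because without molecular identifiers reads can be copies of 1 molecule. The fit was also run on counts simulated from the wild-type-labelled means with few genes changed. Most genes changed in these data, so that run does not check the scaling or the smallest changes here.

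The genes and lists were chosen with earlier results of these data known. The text names the 39 genes, Sphk2, up to 3 of the most abundant markers per list, and from each wider list the 4 largest changes past 0.05 whose groups stood apart and whose average log2 CPM reached 1. Thy1, other markers at or near 0, Fat1, Tnik and Rassf4 were named after their values were seen. Some genes of the lists are counted but not reported here by name. Alternatives were median-of-ratios factors, DESeq2 1.42.0, limma-voom (limma 3.58.1), 2 other filters, a replicate block, a threshold of 0.01, shares without length and leaving out each library.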

Additional observations from a re-analysis of the deposited data

How the results depend on the processing

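With median-of-ratios factors, with DESeq2, with limma-voom, without a filter, with a minimum of 1 CPM in 3 libraries and with a threshold of 0.01, 14 components were lower and 7 higher and 12 targets lower and 4 higher, as with edgeR and TMM factors. Leaving out each library in turn gave 11 to 12 targets lower, and the other 3 counts did not move. Of the 39 genes, 37 kept their direction and their side of the threshold in each of the 13 settings. The exceptions were Myof, given above, and Nf2, which was not called in any and whose log2 fold change turned to -0.0021 with no filter and to -0.011 without null-labelled replicate 2 (-0.011 to 0.049 over the fits that left out a library); the cause was not tested. The shift of the Tead2 share, -3.98 percentage points per kilobase, turned to 5.56 points when counts were not divided by length, because Tead1 has the longest annotated exons of the 4. With a replicate block, 14 components and 12 targets were lower and 7 and 4 higher, and it changed no call of the 39 genes. Deviations of same-numbered libraries correlated only weakly, at 0.010 to 0.036, yet each library correlated best with its own number. Whether the numbers mark a pairing was not tested, and the main fit did not pair the libraries. Depth limits Fat4, Fjx1, Vgll3, Amot, Dchs1, Rbms3 and Ankrd1, whose null-labelled levels rest on 0 to 14 counts a library.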
